A study of Mus musculus with 8 samples.

Results

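Of the 54146 genes quantified by RNA-seq in EL4 cells, 10 were examined here because they encode the killing machinery of cytotoxic lymphocytes. They were chosen by gene symbol, for what their products do, with earlier results of these data known. They comprise the granzymes Gzma, Gzmb, Gzmc and Gzmk, the pore-forming protein gene Prf1 and its relative Pfpl, the death ligand gene Fasl, the granule-associated genes Nkg7 and Ctsw, and the granzyme inhibitor gene Serpinb9. A filter on low counts left 14791 genes for testing, including 7 of the 10. Gzmb, Gzmc and Prf1 did not pass it and are described by their counts.

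Cytotoxic lymphocytes kill in a pair of main ways. In granule exocytosis, perforin opens pores through which granzymes, serine proteases stored in lytic granules, reach the target cell, where granzyme B activates caspases. In the other, Fas ligand on the lymphocyte engages the death receptor Fas on the target. T-bet, the lineage-determining factor of TH1 cells, is known to drive many of these genes in cytotoxic T cells and NK cells, whereas GATA3 specifies TH2 cells, which are not usually cytotoxic.

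EL4 is a lymphoma-derived T cell line from C57BL/6 mice. GFP + Plum expressed the control fluorescent proteins and no added factor, T-bet + Plum expressed FLAG-T-bet, GFP + GATA3 expressed HA-GATA3, and T-bet + GATA3 expressed both. Each was stimulated for 4 h with PMA (50 ng/ml) and ionomycin (1 μM), which mimic signalling through the T cell receptor, so no unstimulated cells were compared. The factors were expressed constitutively in a transformed cell, each group is 1 line, and 2 libraries per line were analysed (8 in all). The study defines replicates as harvests of the same line on different days, so p-values measure the spread between harvests and not between independently made lines.

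Total estimated counts ran from 8038565 to 16003519 per library. Tbx21, which encodes T-bet, had 1.78 to 3.59 CPM in the 4 libraries without FLAG-T-bet and 129 to 160 CPM in the 4 with it. Gata3 had 25.8 to 53.3 CPM in the 4 libraries without HA-GATA3 and 165 to 326 CPM in the 4 with it, so both transcripts followed the labels. The lines with HA-GATA3 were not matched, since Gata3 had 283 and 326 CPM in GFP + GATA3 and 204 and 165 CPM in T-bet + GATA3. Comparisons that involve these lines, and the interaction, are therefore not at equal Gata3 levels, and the part of this in the results was not tested. CPM are counts scaled to a common library size by TMM, and are used to compare 1 gene between libraries. TPM are also corrected for transcript length, and are used to compare genes with each other. T cell markers summed to between 561 and 912 TPM in every line, B cell markers to at most 0.332 TPM and myeloid markers to at most 1.05 TPM. The T cell sum does not hold for each marker, since Cd247 had at most 10 estimated counts and 0.511 TPM in any library.

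The first question was what FLAG-T-bet did to these genes in cells without HA-GATA3. Gzmk, Pfpl, Nkg7 and Ctsw went from at most 7 estimated counts per library to between 312 and 1514, Fasl rose about 10-fold, and Gzma and Serpinb9 rose about 4-fold from levels that were already measurable. Gzmb, Gzmc and Prf1 stayed at a few fragments per library. A gene was called changed where the false discovery rate (FDR) was no higher than 0.05 and the log2 fold change (log2 FC) exceeded 1.5 in size in edgeR's quasi-likelihood test, adjusted by Benjamini-Hochberg over the 14791 genes. By this rule 7 members were called up and 0 down in T-bet + Plum versus GFP + Plum, where 2.12% of all tested genes were called up and 0.892% down. Of these 7, only Gzma, Fasl and Serpinb9 were above the filter's cutoff of 0.663 CPM in every library. Gzmk, Pfpl, Nkg7 and Ctsw passed the filter through the T-bet libraries alone, so that they were tested at all required a difference, and the count of 7 carries no weight of its own.

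**Figure D1:**
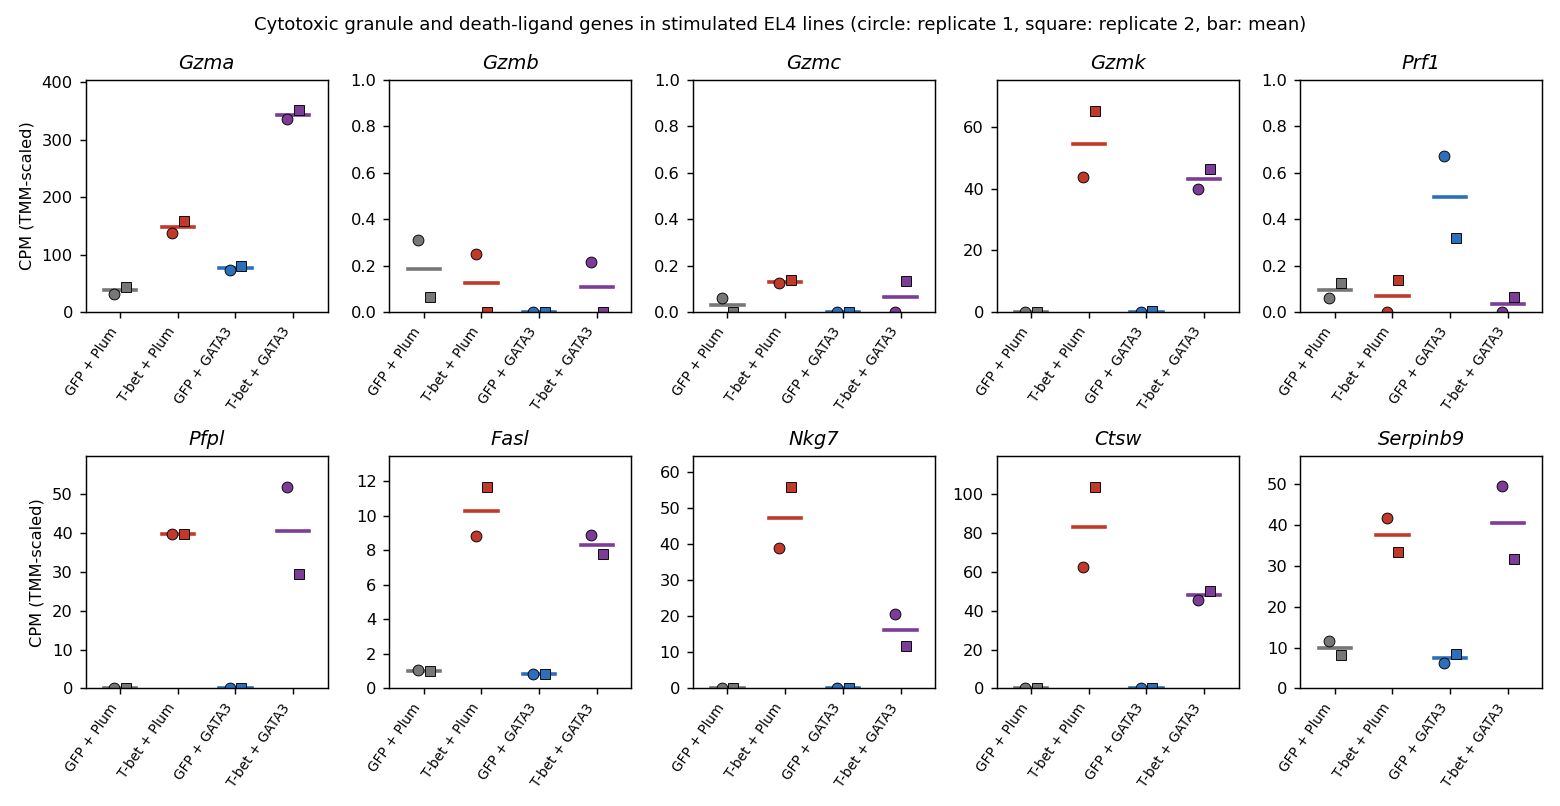
Level of each of the 10 genes in each library, in TMM-scaled CPM on linear axes that start at 0 and differ between panels. Circles are replicate 1, squares replicate 2 and bars the mean of the 2 libraries of a line. For Gzma, Gzmk, Pfpl, Fasl, Nkg7, Ctsw and Serpinb9 every library with FLAG-T-bet lies above every library without it, whereas Gzmb, Gzmc and Prf1 stay under 1 CPM throughout. The same lack of overlap held for 12.5% of tested genes, and the filter all but fixed it for Gzmk, Pfpl, Nkg7 and Ctsw.

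Gzma encodes granzyme A, a tryptase whose gene lies at chr13:113093825-113100981 (GRCm38, minus strand, ENSMUSG00000023132.8). Its level was 31.7 and 44.0 CPM in the GFP + Plum libraries, and with FLAG-T-bet it was 138 and 159 CPM. The groups did not overlap, and the log2 FC was 1.97 (SE 0.17, FDR 0.000632). Gzma was the only granzyme with substantial expression in control cells, at 513 and 694 estimated counts.

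Gzmk, the neighbouring tryptase gene, encodes granzyme K (chr13:113171608-113225908, minus strand, ENSMUSG00000042385.14). It had 1 and 2 estimated counts in the GFP + Plum libraries and 352 and 954 in the T-bet + Plum libraries. In CPM these were 0.0619 and 0.127 against 43.8 and 65.2, a near-absent transcript against a clearly expressed one. The ratio of the pooled CPM was 613, with an exact 95% interval from 209 to 2978 that covers counting error only. The fitted log2 FC was 9.05 (FDR 7.86e-05), but with so few control counts its size depends on the prior count of the fit and is no bound. The 250 bases before the RefSeq start of Gzmk (chr13:113180966-113181215, GRCm38.p6, minus strand, written 5′ to 3′) are shown because Gzmk had the largest ratio among the member granzymes and because its promoter holds the T-box core AGGTGT, searched on both strands, at 2 places given in capitals.
Gzmk promoter: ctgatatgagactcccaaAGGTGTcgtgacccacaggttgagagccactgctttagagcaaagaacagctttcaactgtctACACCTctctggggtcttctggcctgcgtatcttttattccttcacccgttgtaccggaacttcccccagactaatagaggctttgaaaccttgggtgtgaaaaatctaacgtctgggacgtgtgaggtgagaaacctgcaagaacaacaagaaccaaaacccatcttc
The matches begin 232 and 169 bases before the start, the second on the opposite strand. The Gencode gene also has transcripts that start farther upstream, which this window does not cover.

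Gzmb encodes granzyme B, the caspase-activating granzyme of cytotoxic T cells, and Gzmc a relative in the same cluster on chromosome 14. Gzmb had 5 and 1 estimated counts in GFP + Plum, 2 and 0 in T-bet + Plum, 0 and 0 in GFP + GATA3, and 2 and 0 in T-bet + GATA3. Gzmc had at most 2.02 estimated counts in any library, and 6.02 over the 8 libraries. Neither reached the filter's cutoff in any library, and no difference between lines was detectable at this depth. For Gzmc, 14.8% of the 31-base words of its transcripts occur in other genes, mainly Gzme, Gzmg and Gzmd, so fragments may be divided between them. A count of 0 allows up to 3 counts, which corresponds to between 0.187 and 0.373 CPM in these libraries before TMM scaling.

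Among the pore-forming proteins, Prf1 encodes perforin itself (chr10:61297833-61304680, plus strand, ENSMUSG00000037202.6). It had 1 and 2 estimated counts in GFP + Plum, 0 and 2 in T-bet + Plum, 7 and 5 in GFP + GATA3, and 0 and 1 in T-bet + GATA3. The libraries with FLAG-T-bet were therefore at or below 2 counts, and the highest values were those of GFP + GATA3. The 12 counts of GFP + GATA3 against 3 of GFP + Plum gave a ratio of pooled CPM of 4.87, with an exact counting interval from 1.31 to 26.9, but only 1 library passed the cutoff and the gene was not tested. The Prf1 promoter is shown (chr10:61297586-61297835, GRCm38.p6, plus strand) since it holds the same T-box core, in capitals, 24 bases before the start although the transcript stayed near 0 with FLAG-T-bet.
Prf1 promoter: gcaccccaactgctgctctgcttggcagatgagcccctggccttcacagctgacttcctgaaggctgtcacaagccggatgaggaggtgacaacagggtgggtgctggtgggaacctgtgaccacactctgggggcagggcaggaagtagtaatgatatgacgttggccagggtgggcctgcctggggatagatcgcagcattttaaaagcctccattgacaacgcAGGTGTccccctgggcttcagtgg

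Pfpl, the perforin-like gene at chr19:12427905-12432110 (plus strand, ENSMUSG00000040065.8), behaved differently. It was at 0 counts in both GFP + Plum libraries and, with FLAG-T-bet, at 319 and 580 estimated counts, or 39.7 and 39.7 CPM. Against a floor of 3 counts in each control library this was at least 211-fold higher, and the edgeR FDR was 0.000234. The Pfpl promoter (chr19:12427655-12427904, GRCm38.p6, plus strand) is shown because it was the single member promoter with the GATA letters AGATAA, in capitals on either strand, at 4 places, and it has no T-box core.
Pfpl promoter: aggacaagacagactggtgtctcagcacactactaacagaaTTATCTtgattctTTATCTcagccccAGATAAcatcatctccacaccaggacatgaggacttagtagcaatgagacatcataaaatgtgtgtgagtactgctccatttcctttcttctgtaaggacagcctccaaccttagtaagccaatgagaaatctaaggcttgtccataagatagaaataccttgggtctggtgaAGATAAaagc

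Fasl encodes Fas ligand, the membrane protein that triggers death through Fas (chr1:161780689-161788495, minus strand, ENSMUSG00000000817.10). Its level was 1.05 and 1.01 CPM in GFP + Plum and 8.84 and 11.7 CPM in T-bet + Plum. The ranges were far apart, and the log2 FC was 3.31 (SE 0.28, FDR 0.000513). Because these are bulk libraries, a larger share of cells with the transcript and more transcript per cell cannot be told apart, for Fasl or any other gene here.

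Nkg7 encodes a small membrane protein of lytic granules that is needed for efficient degranulation (chr7:43437073-43438249, plus strand, ENSMUSG00000004612.9). It had 0 and 1 estimated counts in the GFP + Plum libraries and 312 and 815 in the T-bet + Plum libraries, or 38.8 and 55.7 CPM in the latter. The ratio of pooled CPM was 1588, with an exact counting interval from 284 to 62769 whose width comes from the single control count, and the FDR was 0.000101. The Nkg7 promoter (chr7:43436888-43437137, GRCm38.p6, plus strand) is shown because it was the single member promoter with the longer T-box element AGGTGTGA, in capitals, 14 bases before the RefSeq start. The Gencode gene starts inside this window, at 43437073, so the element lies downstream of that start and within the Gencode gene.
Nkg7 promoter: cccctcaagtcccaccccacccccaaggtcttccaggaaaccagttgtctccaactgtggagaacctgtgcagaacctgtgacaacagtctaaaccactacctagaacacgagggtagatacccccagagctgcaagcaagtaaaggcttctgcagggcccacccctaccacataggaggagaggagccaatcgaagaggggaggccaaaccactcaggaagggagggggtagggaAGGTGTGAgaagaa

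Promoters of 9 of the 10 members were found in RefSeq (GRCm38.p6), and Ctsw was the other gene. The core AGGTGT lay in 4 of the 9, those of Gzma, Gzmk, Prf1 and Nkg7, and in 11.8% of 32851 mouse promoters of the same 250 bases. The element AGGTGTGA, which contains that core, lay in 1 of the 9 and in 1.12% of all promoters, and AGATAA in 1 of the 9 and in 9.99%. Pfpl, Fasl and Serpinb9 were called up with FLAG-T-bet and have no T-box core in this window, and Prf1 has one and stayed near 0. The Serpinb9 window (chr13:33004291-33004540) lies inside the Gencode gene, which starts at 33003250, so the bases before that start were not searched. A match describes the letters only and is not evidence of binding.

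Ctsw encodes cathepsin W, a cysteine protease of cytotoxic lymphocytes (chr19:5465043-5468507, minus strand, ENSMUSG00000024910.4). It rose from 0.433 and 0.254 CPM in GFP + Plum to 62.5 and 104 CPM in T-bet + Plum. In counts this was 7 and 4 against 502 and 1514, a ratio of pooled CPM of 258 with an exact counting interval from 144 to 518. The fitted log2 FC was 7.88 (SE 0.37, FDR 4.94e-05).

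Serpinb9 encodes an intracellular serpin that inhibits granzyme B and protects killer cells from their own granules (chr13:33003250-33017957, plus strand, ENSMUSG00000045827.10). Its level was 11.5 and 8.25 CPM in GFP + Plum and 41.7 and 33.4 CPM in T-bet + Plum, with a log2 FC of 1.92 (SE 0.28, FDR 0.00667). The inhibitor was thus higher in lines in which Gzmb itself had at most 2 counts per library. Sequence is shared with relatives, since 4.94% of the 31-base words of its transcripts occur in other genes, mainly Serpinb9b, which had at most 3.03 estimated counts in a library.

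The second question was whether the rise with FLAG-T-bet was also seen in cells with HA-GATA3. The same 7 members were called up in T-bet + GATA3 versus GFP + GATA3, where 1.99% of tested genes were called up and 0.859% down, and in T-bet + GATA3 versus GFP + Plum, where the shares were 1.94% and 0.669%. These comparisons share libraries with each other, and the latter shares its control with the comparison above, so they are not separate evidence. For each of the 7, all 4 libraries with FLAG-T-bet were above all 4 without it, which held for 12.5% of tested genes. Gzmk, Pfpl, Nkg7 and Ctsw were tested only because they were high with FLAG-T-bet, which all but fixed this for them. Neither their calls nor their lack of overlap carries weight, and only Gzma, Fasl and Serpinb9 were above the filter's cutoff in every line. The plot of fitted effects sets the comparisons side by side.

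**Figure D2:**
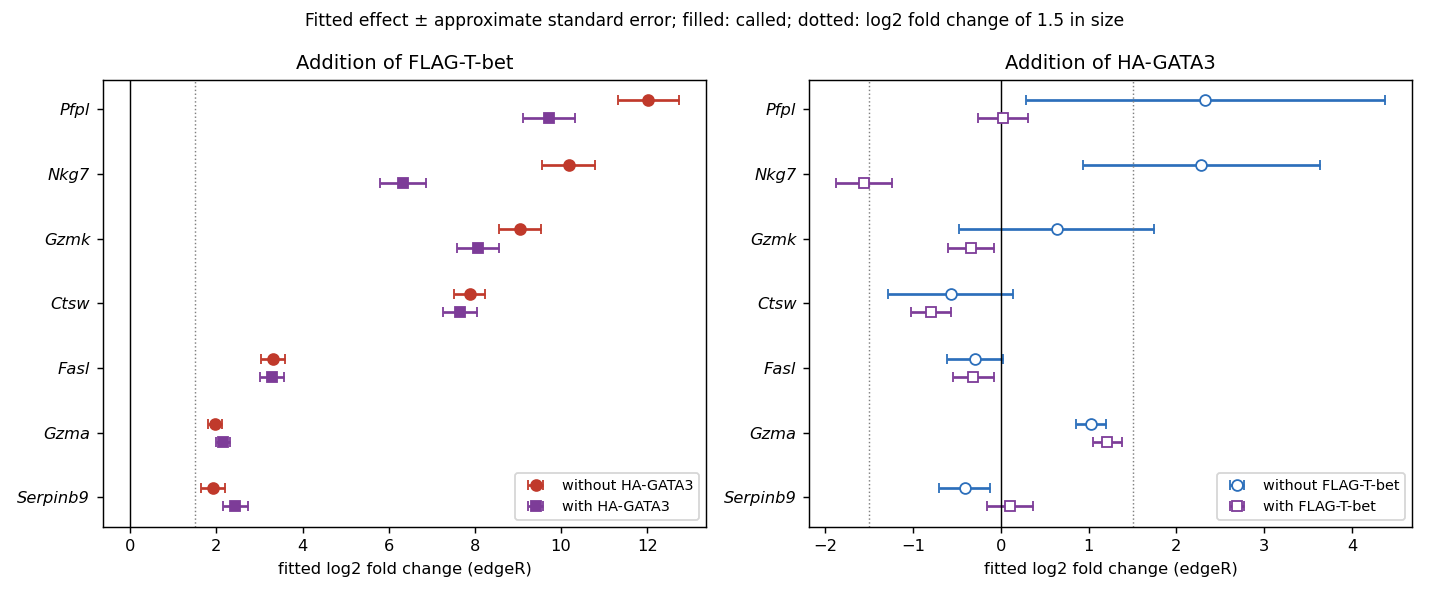
Fitted log2 FC with its approximate standard error for the 7 tested genes. On the left is the effect of FLAG-T-bet without HA-GATA3 (circles) and with it (squares), and on the right the effect of HA-GATA3 without FLAG-T-bet (circles) and with it (squares). Every effect on the left is called, from 1.92 for Serpinb9 to 12.03 for Pfpl without HA-GATA3, and none on the right is; the sizes for Gzmk, Pfpl, Nkg7 and Ctsw on the left rest on few control counts.

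Gzma reached its highest level in the line with both factors, at 336 and 352 CPM against 73.6 and 80.8 CPM in GFP + GATA3. The log2 FC was 2.15 (SE 0.17, FDR 0.000426). Against GFP + Plum it was 3.18 (SE 0.18, FDR 8.58e-05), which makes granzyme A mRNA 9.07-fold higher by the fit in T-bet + GATA3 than in control cells.

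Gzmk had 368 and 699 estimated counts in T-bet + GATA3 against 0 and 4 in GFP + GATA3, a ratio of pooled CPM of 288 with an exact counting interval from 112 to 1059. Pfpl had 479 and 444 against 1 and 0, a ratio of 997 with an interval from 178 to 39402. Nkg7 had 191 and 178 against 1 and 4, a ratio of 79.7 with an interval from 33.8 to 247. The intervals cover counting error only, and each gene was near 0 without FLAG-T-bet whether or not HA-GATA3 was present. Their edgeR FDRs were 0.000106, 0.000269 and 0.00056 in that order.

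Ctsw had 45.7 and 50.3 CPM in T-bet + GATA3 and 0.191 and 0.254 CPM in GFP + GATA3 (fitted log2 FC 7.66, SE 0.40, FDR 7.33e-05). Fasl had 8.87 and 7.78 CPM against 0.861 and 0.824 CPM (log2 FC 3.29, SE 0.29, FDR 0.000688). Serpinb9 had 49.4 and 31.6 CPM against 6.22 and 8.50 CPM (log2 FC 2.44, SE 0.29, FDR 0.00267). The effect on each of these 3 genes was therefore in the same direction as without HA-GATA3.

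Whether the effect of FLAG-T-bet differed with HA-GATA3 was tested by the interaction term. It was called for 0 of the 7 members by edgeR, as for 0 of all tested genes, and for 0 members by DESeq2. At an unadjusted p under 0.05 it held for 1 member, Nkg7 (-3.84, SE 1.40, unadjusted p = 0.0248, FDR 1.0), beside 2.58% of tested genes, a value that rests on the 0 and 1 counts of GFP + Plum. For Gzma the interaction was 0.18 with an approximate 95% interval from -0.47 to 0.83, for Fasl -0.02 with an interval from -1.34 to 1.31, and for Serpinb9 0.52 with an interval from -0.56 to 1.60. These intervals, from the SE and 4 residual degrees of freedom, leave room for differences of more than 2-fold for Fasl and Serpinb9.

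The third question was what HA-GATA3 did to these genes, alone or on top of FLAG-T-bet. Gzma was the one tested member whose libraries with HA-GATA3 were above those without it, with no overlap, in both settings, by about 2-fold each time, although neither difference was called. Without FLAG-T-bet, HA-GATA3 left 0 of the 7 tested members called by edgeR, beside 0.0203% of tested genes called up and 0% down. By DESeq2 it was also 0, and at an unadjusted p under 0.05 it was 1, Gzma, beside 3.7% of tested genes. With FLAG-T-bet it was 0 by edgeR, beside 0.0203% of genes called up and 0.0135% down, and 3 at an unadjusted p under 0.05, namely Gzma, Nkg7 and Ctsw, beside 3.78% of tested genes. DESeq2 called 1, Nkg7.

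Without FLAG-T-bet, Gzma was at 31.7 and 44.0 CPM in GFP + Plum and at 73.6 and 80.8 CPM in GFP + GATA3. The libraries did not overlap, as for 14.3% of tested genes in this direction. The log2 FC was 1.03 (SE 0.17, approximate 95% interval 0.56 to 1.5) with an edgeR FDR of 0.229. With FLAG-T-bet, Gzma went from 138 and 159 CPM in T-bet + Plum to 336 and 352 CPM in T-bet + GATA3, again without overlap, as for 14.2% of genes. The log2 FC was 1.21 (SE 0.17, interval 0.75 to 1.67) with an FDR of 0.116. Of all tested genes, 3.22% were higher without overlap in both settings. DESeq2 gave FDRs of 0.000134 and 4.19e-07 for the same differences, but both log2 FCs were below the threshold of 1.5, so no setting called Gzma.

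Nkg7 moved in the other direction when HA-GATA3 was added to FLAG-T-bet. Its level was 38.8 and 55.7 CPM in T-bet + Plum and 20.7 and 11.8 CPM in T-bet + GATA3, without overlap, as for 16% of tested genes in this direction. The log2 FC was -1.56 (SE 0.31, interval -2.43 to -0.69) and the edgeR FDR 0.479. This call depended on the method: DESeq2 gave an FDR of 0.00625, DESeq2 with transcript length offsets 0.0136 and edgeR without the filter on low counts 6.45e-08, each with a log2 FC just past 1.5 in size. With single libraries left out the edgeR log2 FC ran from -2.01 to -1.21, the latter without T-bet + GATA3 replicate 2.

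Ctsw was at 62.5 and 104 CPM in T-bet + Plum and at 45.7 and 50.3 CPM in T-bet + GATA3 (log2 FC -0.79, SE 0.23, interval -1.43 to -0.15, FDR 1.0). Gzmk was at 43.8 and 65.2 against 39.8 and 46.5 CPM, so the libraries overlapped (log2 FC -0.34, interval -1.08 to 0.40). The corresponding log2 FC was 0.03 for Pfpl (interval -0.76 to 0.82), -0.31 for Fasl (interval -0.97 to 0.35) and 0.11 for Serpinb9 (interval -0.62 to 0.84). An FDR above the threshold does not show that these levels were alike. In GFP + GATA3 versus GFP + Plum, Fasl (0.861 and 0.824 against 1.05 and 1.01 CPM) and Serpinb9 (6.22 and 8.50 against 11.5 and 8.25 CPM) gave log2 FCs of -0.30 and -0.41, both with an FDR of 1.0. Gzmk, Pfpl, Nkg7 and Ctsw were at or under 7 estimated counts in each of those libraries.

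The order of the members by TPM, which allows genes to be compared, was led by Gzma in every line. In T-bet + Plum its mean was 193 ± 18.5 TPM, followed by Ctsw (75.4 ± 26.0), Nkg7 (68.7 ± 18.2) and Gzmk (59.5 ± 16.4), whose libraries overlapped with each other (SD, n = 2 each). Below them lay Serpinb9 (11.9 ± 1.91 TPM) and Pfpl (10.9 ± 0.0640), which overlapped, and Fasl (10.1 ± 0.910). The higher Fasl library was at 10.7 TPM, just under the lower one of Pfpl at 10.8 TPM. It was within the range of Serpinb9, whose lower library was at 10.6 TPM. Of the Fasl values, 5.39 and 5.04 TPM were assigned to a 406-base transcript with 13.7 and 23.5 estimated counts. In T-bet + GATA3 that transcript had 0.821 and 2.34 TPM, so the place of Fasl depends on this assignment. In T-bet + GATA3, Gzma stood at 425 ± 51.2 TPM, Gzmk at 45.4 ± 9.23 and Ctsw at 41.5 ± 6.43, with the last 2 overlapping. Nkg7 at 22.0 ± 7.25 TPM was then below both without overlap, where in T-bet + Plum it had overlapped with them, and Serpinb9 (12.0 ± 2.73) and Pfpl (10.4 ± 3.18), which overlapped, and then Fasl (5.74 ± 0.859) followed. In the lines without FLAG-T-bet the order was Gzma (50.7 ± 7.49 and 108 ± 7.56 TPM in GFP + Plum and GFP + GATA3), Serpinb9 (3.27 ± 1.03 and 2.51 ± 0.560) and Fasl (0.814 ± 0.230 and 0.575 ± 0.102), and the remaining 7 were at most 0.478 TPM in a library.

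The deposited values are per transcript, so the splicing of the genes in the FLAG-T-bet libraries could be described. Gzmk counts were divided among 3 annotated transcripts, of which one of 889 bases is marked as a target of nonsense-mediated decay and took 29.6% to 37.3% of the counts of the gene. Its protein-coding transcripts of 1028 and 1304 bases took 31.3% to 41.7% and 25.0% to 31.9%. Fragments of Gzmk were thus never assigned to coding transcripts alone.

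For Nkg7, the main coding transcript of 881 bases took 68.8% to 75.9%, a shorter coding one of 686 bases 10.8% to 25.9%, and a retained-intron transcript of 526 bases 2.14% to 13.2%. For Fasl, the 1937-base transcript took 80.7% to 96.7%, and a 406-base one the rest. Gzma was dominated by its 878-base transcript, at 96.5% to 98.3%. These shares are kallisto's assignments of fragments that overlapping transcripts have in common, and differences in them between lines were not tested.

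**Figure D3:**
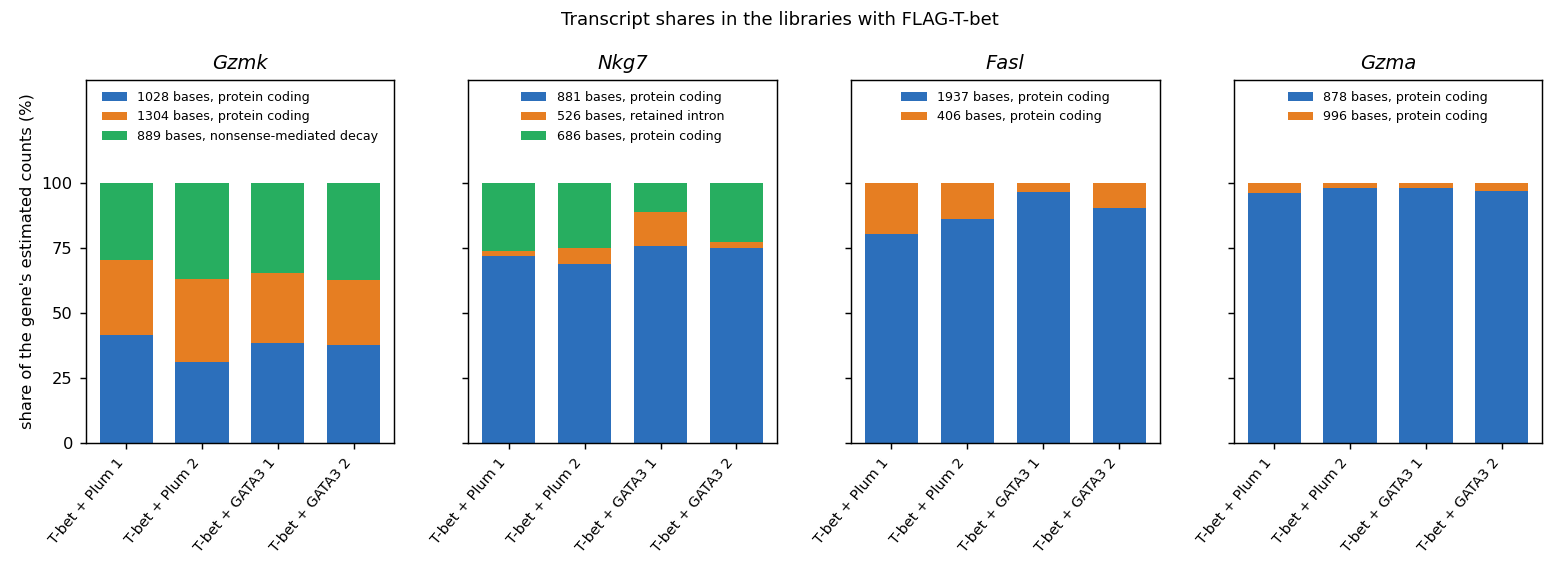
Share of each gene's estimated counts assigned to each annotated transcript, in percent, for the 4 libraries with FLAG-T-bet. Each bar is 1 library and each colour 1 transcript, named by its length and annotation. Gzmk is divided among 3 transcripts in every library, whereas Gzma is nearly all 1 transcript.

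The other genes of the pathway, described next, come from lists chosen with earlier results known. In T-bet + Plum versus GFP + Plum the median log2 FC of all tested genes was 0.01. The counts of genes called up in each list stand beside the 2.12% of all tested genes. Genes under the filter's cutoff without FLAG-T-bet entered them only because they were high with it. This holds for the 3 of the 6 other granzymes that were tested, Gzmd, Gzme and Gzmm, of which Gzme was called up, so their count carries no weight. Gzme was at 0 in all 4 libraries without FLAG-T-bet, at 2.86 and 11.7 CPM in T-bet + Plum and at 14.3 and 4.59 CPM in T-bet + GATA3. This was at least 38.7-fold higher against the floor of 3 counts in each GFP + Plum library (FDR 0.0277), but 42.1% of the 31-base words of Gzme also occur in other genes, mainly Gzmd, so that fragments may be divided between them. Gzmd itself, with at most 38.7 estimated counts in a library and 0 without FLAG-T-bet, was not called (FDR 0.0692). The call of Gzme was lost in 3 of 15 alternatives, when either GFP + Plum library (FDR 0.0647 and 0.0818) or T-bet + Plum replicate 2 (FDR 0.108) was left out.

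Of the 4 other death ligands of the TNF family 3 were tested, with a median log2 FC of 0.63. Among these, Tnfsf10 lay around the filter's cutoff of 0.663 CPM without FLAG-T-bet, at 0.444 to 0.866 CPM. It passed the filter through the libraries with the factor, so its calls carry little weight. Tnfsf10, which encodes TRAIL, was at 0.866 and 0.444 CPM in GFP + Plum and at 3.48 and 6.84 CPM in T-bet + Plum (log2 FC 2.98, SE 0.56, FDR 0.0203), and it was also called up in T-bet + GATA3 versus GFP + GATA3 (log2 FC 3.08, FDR 0.0221, a call that 4 of 16 alternatives did not give). In the former comparison it was not called by limma on log2(TPM + 1), nor without GFP + Plum replicate 2 (FDR 0.0957) or T-bet + Plum replicate 2 (FDR 0.158). All 11 death receptor and signalling genes were tested, with a median of 0.24 and 1 called: Tnfrsf1a, a receptor for TNF, rose by a log2 FC of 1.80 (FDR 0.0138). That call was lost without either GFP + Plum library (FDR 0.0543 and 0.0524) and without T-bet + Plum replicate 2 (FDR 0.0604), and with HA-GATA3 present the effect of FLAG-T-bet was not called (log2 FC 1.01, FDR 0.104). Fas, the receptor of Fas ligand, was not called (log2 FC 0.86, FDR 0.466).

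Of 9 granule matrix, protease and membrane genes 6 were tested, with a median log2 FC of -0.65. Ctsl, which encodes the protease cathepsin L, fell by 1.75 (FDR 0.00806), a call lost without GFP + Plum replicate 2, where its log2 FC was -1.33, and without T-bet + Plum replicate 2 (FDR 0.0994). Srgn, the proteoglycan core that packs granzymes, gave a log2 FC of 1.36 (FDR 0.0198), under the size required. Ctsc, which encodes the protease that activates granzymes by removing their propeptide, was at 0 in every library except 1, which had 1.01 estimated counts. Cst7, a cystatin of cytotoxic cells, was called only in T-bet + GATA3 versus GFP + Plum, where it fell by 1.88 (FDR 0.0275), a call that 4 of 16 alternatives did not give.

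Of the 15 trafficking and exocytosis genes found in the files 12 were tested, with a median log2 FC of -0.15 and 1 called. Lyst, whose loss causes the granule disorder of the beige mouse, was at 22.8 and 21.8 CPM in GFP + Plum and at 71.2 and 78.0 CPM in T-bet + Plum (log2 FC 1.74, SE 0.19, FDR 0.0017), a call not made by limma on log2(TPM + 1). Sytl3 fell in T-bet + GATA3 versus GFP + Plum by 2.01 (FDR 0.0164), which 4 of 16 alternatives did not call. Of 10 other serpin genes 4 were tested, with a median of 1.14. Among these, Serpina3g was at most 0.0634 CPM without FLAG-T-bet and up to 0.996 CPM with it. It was tested only because it was high with the factor, so the median carries little weight. Serpinb6b rose from 7.49 and 4.88 CPM in GFP + Plum to 44.2 and 33.5 CPM in T-bet + Plum (log2 FC 2.64, SE 0.37, FDR 0.00589), and Serpinb1a, an inhibitor of neutrophil proteases, fell by 1.81 (FDR 0.0165). The fall of Serpinb1a was not called without GFP + Plum replicate 1, where its log2 FC was -1.48, or without either T-bet + Plum library (FDR 0.122 and 0.118). With HA-GATA3 present, FLAG-T-bet gave a log2 FC of 1.46 for Lyst (FDR 0.00411), -1.17 for Ctsl (FDR 0.0379) and -1.32 for Serpinb1a (FDR 0.0512), none of which was called. Adding HA-GATA3, without or with FLAG-T-bet, left 0 genes of these 6 lists called by edgeR.

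**Figure D4:**
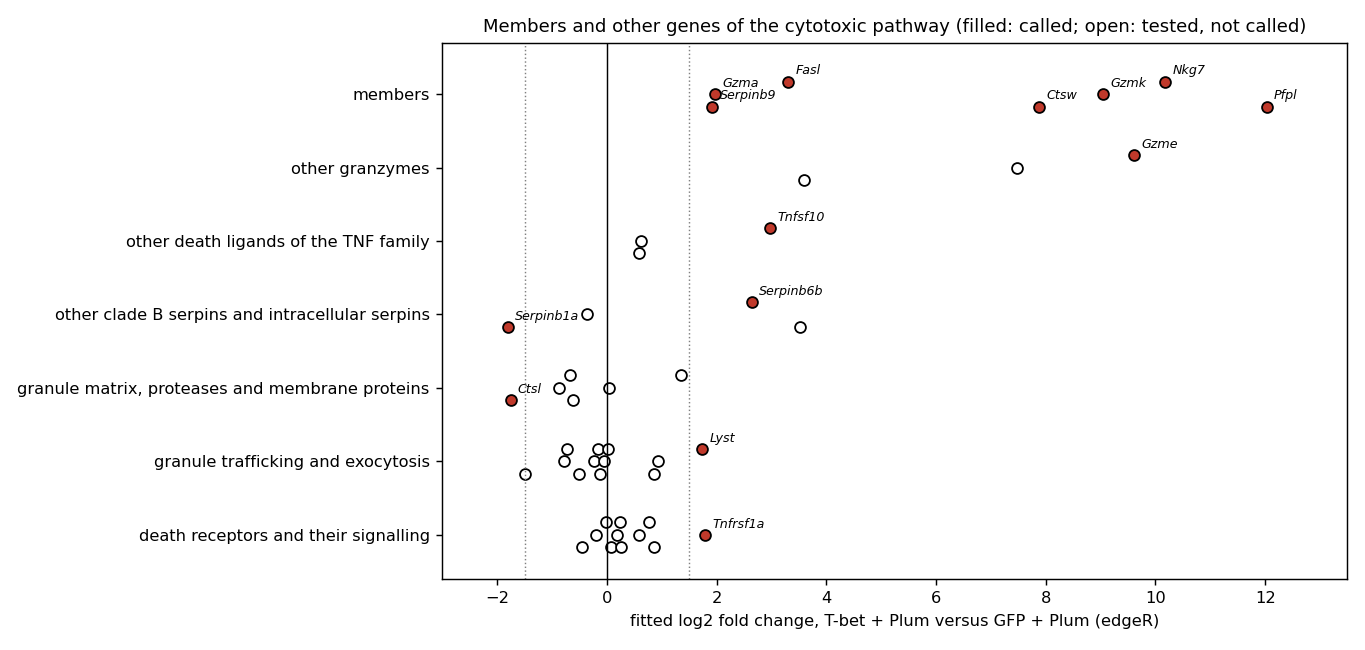
Fitted log2 FC in T-bet + Plum versus GFP + Plum for the tested members and for each tested gene of 6 other lists of the cytotoxic pathway. Filled points are called and named, open points are tested but not called, and dotted lines mark a log2 FC of 1.5 in size. The trafficking genes have a median of -0.15, and the 7 members lie between 1.92 and 12.03. Members and lists were chosen with earlier results known. Gzmk, Pfpl, Nkg7 and Ctsw were tested only because they were high with FLAG-T-bet, so their place carries no weight. Their sizes also rest on few control counts.

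Markers of NK cells, which share this machinery, moved in part with the members. The 6 NK markers summed to 8.12 and 9.08 TPM in GFP + Plum, 5.94 and 7.07 TPM in GFP + GATA3, 112 and 148 TPM in T-bet + Plum, and 113 and 165 TPM in T-bet + GATA3. Most of the sum was Cd160, at 107 to 156 TPM in the libraries with FLAG-T-bet, while Klrk1 had at most 4 estimated counts in any library. Of these 6, 2 were tested. Cd160, at 8.54 and 8.44 CPM in GFP + Plum, was called up in T-bet + Plum with a log2 FC of 3.94 (FDR 0.000213). Klre1 was called too (fitted log2 FC 5.24, FDR 0.00178), but at 0.127 to 0.287 CPM without FLAG-T-bet it was under the filter's cutoff there and was tested only because it was high with the factor. The NK receptor genes Ncr1 and Klra8 were at 0 in all 8 libraries, and Klrb1c had 1 estimated count in 1 library of T-bet + Plum. The part of NK-associated genes in the members' result was not tested. Of the myeloid markers Lyz2 fell by 3.04 (FDR 0.0414) with both factors against GFP + Plum, a call that 12 of 16 alternatives did not give. The T cell markers Cd2 (log2 FC 3.48, FDR 0.000376) and Lck (log2 FC 1.79, FDR 0.0358) were also called up in T-bet + Plum versus GFP + Plum, Lck with a call that 4 of 16 alternatives did not give.

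Protein-coding genes whose pattern over the 8 libraries was most like that of a member were found by the root mean square difference of centred log2 CPM, among 11064 tested genes. Fasl had the closest neighbour, Sema6d, at 0.100, followed by Cd52 at 0.168. Sema6d averaged 1.88 CPM with FLAG-T-bet and 0.102 CPM without it. Distances of genes near 0 depend on the prior count of 2 in the log2 CPM. This also holds for Samd3 and Slit3, named below, at 0.0313 and 0.0785 CPM without the factor. Serpinb9 was closest to Dusp2 (0.226), Gzmk to Gja5 (0.281) and Pfpl to Samd3 (0.376). Ctsw had Gzmk as its second neighbour (0.477) after Slit3 (0.346), and Nkg7 had Ctsw as its first, although at 0.658 this was the least close. Gzma was nearest to Klrg1 (0.381), a receptor gene of differentiated killer cells that averaged 2.97 CPM with FLAG-T-bet and 0.840 CPM without it. The 8 libraries share their lines and depths, so these distances are descriptions with no test.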

How the data were processed

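RNA-seq libraries of 4 EL4 lines (2 each) were analysed. The authors filtered reads with FastQC, removed adapters with Trim Galore and quantified transcripts with kallisto on Gencode models of mm10 (release M20 in the methods, M18 by the label of the values). The deposited values give, for 136535 transcripts in each library, estimated counts, TPM and lengths. The methods describe poly-adenylated RNA, and the labels add ribosomal depletion. The legend gives n = 3, whereas 2 libraries per line were used here. Tool versions and strandedness are not given in the sources used here.

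Estimated counts and TPM were summed per gene identifier. Genes were then looked up by symbol, and each member symbol had 1 identifier. Rounded sums of all genes and all 8 libraries were fitted together in edgeR 4.0.16 (R 4.3.3) with TMM, filterByExpr, the quasi-likelihood test and Benjamini-Hochberg adjustment. The interaction was called on the FDR alone. SE were derived from the F statistic, and intervals from the SE, so both are approximate. A fold against a line at 0 uses a floor of 3 counts per library and is a lower bound. Floors and exact intervals cover counting error only, and replicates differed by more than that (chi-square per degree of freedom 9.71 to 28.3). The fit was run on simulated data with the same spread for every gene and with changes placed only in well-counted genes. That simulation does not cover genes near 0 in some lines, such as Gzmk, Pfpl, Nkg7 and Ctsw.

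The members and lists were chosen with earlier results of these data known. The genes named were the members, Tbx21, Gata3, the genes of each pathway list called between lines, and the nearest neighbours of each member. Gzmd, Fas, Srgn and Ctsc were added after their values were seen, and marker genes are given as checks. Alternatives were DESeq2 1.42.0 without and with length offsets, scaling by library size, no filter, the replicate number as a block, only the libraries of a contrast, limma 3.58.1 on log2(TPM + 1), summed paralogs, an FDR threshold alone, and leaving out single libraries. Vamp7 was not analysed here.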

Additional observations from a re-analysis of the deposited data

How the results depend on the processing

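All 336 values of members with against without FLAG-T-bet over the alternatives kept their direction and their call, with a largest FDR of 0.0455 (Serpinb9, T-bet + Plum versus GFP + Plum). These values are refits of the same libraries and are not separate evidence. Those of Gzmk, Pfpl, Nkg7 and Ctsw come from genes tested only because they were high with FLAG-T-bet, so the count of 336 carries no weight of its own. With HA-GATA3 added to FLAG-T-bet, 1 member (Nkg7) instead of 0 was called under DESeq2, DESeq2 with transcript length offsets and no filter on low counts. The cause was not tested. Some uncalled differences changed sign. For HA-GATA3 added to FLAG-T-bet, the log2 FC of Pfpl was -0.019 with scaling by library size, -0.028 with the replicate block and -0.092 with limma on TPM, and Serpinb9 at -0.00078 with limma on TPM. The interaction of Fasl was 0.013 without the filter. Leaving out single libraries gave -3.41 to 1.35 for Gzmk in GFP + GATA3 versus GFP + Plum, -0.43 to 0.37 for Pfpl and -0.25 to 0.39 for Serpinb9 between the lines with FLAG-T-bet, and for the interaction -0.074 to 0.40 (Gzma), -1.69 to 3.07 (Gzmk), -3.40 to 0.029 (Pfpl), -0.20 to 0.21 (Fasl) and -0.64 to 0.20 (Ctsw). Same-numbered libraries correlated between -0.0455 and 0.302, above 0.1 in 4 of 6 pairs of lines but not in every one, so the numbers were not taken to pair the libraries, though a shared day was not tested. The replicate block changed no member's call (7 for T-bet + Plum versus GFP + Plum), but it took the FDR of Gzma between the lines with FLAG-T-bet from 0.116 to 0.0294, with a log2 FC of 1.22, under the required size. Counts over all genes moved more. T-bet + Plum versus GFP + Plum had 446 calls, 814 without the filter, 236 by limma, 917 by FDR alone, and 277 and 201 without T-bet + Plum replicates 1 and 2. T-bet + GATA3 versus GFP + Plum had 386, 762 without the filter, 193 by limma, 233 from its libraries alone and 721 by FDR alone, and T-bet + GATA3 versus GFP + GATA3 421, 813, 247 by limma, 854 by FDR alone, and 230 and 197 without GFP + GATA3 replicates 1 and 2. GFP + GATA3 versus GFP + Plum had 3, with 29 by DESeq2 (28 with offsets), 138 without the filter, 0 from its libraries alone or without GFP + GATA3 replicate 2, and 5 without GFP + GATA3 replicate 1. The lines with FLAG-T-bet differed in 5, with 23 by DESeq2, 124 without the filter, 9 by limma, 3 from their libraries alone and 1 to 8 with single libraries left out (1 without either T-bet + Plum library, 2 without T-bet + GATA3 replicate 1, 3 without either GFP + GATA3 library and 8 without either GFP + Plum library). The interaction had 0, with 15 by DESeq2, 145 without the filter, 1 by limma, 1 without GFP + Plum replicate 1 and 3 without T-bet + GATA3 replicate 2. The TPM scale moved the median of all genes by more than 0.1 in T-bet + GATA3 versus GFP + GATA3, to -0.14. Depth limits Gzmb, Gzmc and Prf1.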
